A study of Mus musculus with 18 samples.

Results

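Galectins are small lectins that bind beta-galactoside sugars on glycoproteins and glycolipids. They have no signal peptide and leave cells by an unconventional route, so that the same protein can work in the cytosol, where it marks ruptured vesicles, and outside the cell, where it cross-links receptors. In the brain, activated microglia and macrophages are a known source of galectin-3, and reactive astrocytes of galectin-1. The 6 genes described here were taken by name: 5 encode galectins (Lgals1, Lgals3, Lgals7, Lgals8 and Lgals9) and the other, Lgals3bp, encodes the secreted glycoprotein that galectin-3 binds. All 6 were found among the 55416 genes of the deposited count table, and 5 passed the filter on low counts. Lgals7 did not pass.

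The libraries were poly(A)+ RNA-seq of brain tissue resected around metastases in mice labelled wild type, collected 10 days after 40000 tumour cells had been injected. Melanoma metastases came from B16-F10-BrM4 cells (replicates 1 to 6), a brain-seeking line made from mouse B16-F10 melanoma. Breast cancer metastases came from EO771-BrM3 cells (replicates 14 to 19), made from the mouse mammary tumour line EO771, and lung cancer metastases from 482N1 cells (replicates 7 to 11 and 13). Each model is 1 tumour line, with 6 brains, and no tumour-free brain was analysed here, so that each comparison is between models. Library totals ran from 7366250 to 14533877 counts, and 3 counts equal a CPM (count scaled to library size) of 0.206 to 0.407. All 7 neuronal and all 6 oligodendrocyte markers were read in every model, with summed levels of 2659 to 6455 and 3968 to 6843 CPM over the 18 libraries. Melanoma replicate 3 and breast replicates 18 and 19 were poor in long transcripts: their slopes of log2 CPM on log2 length were -0.261, -0.279 and -0.223, and the slopes of the remaining 15 libraries lay at -0.124 to 0.192.

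Lgals3, which encodes the chimaera-type galectin-3 with its long collagen-like tail, had the largest difference among the 5 members tested, being low in the melanoma libraries. It was at 58.1, 25.4, 33.1, 9.11, 4.82 and 5.28 CPM in melanoma replicates 1 to 6. In the breast libraries the lowest, median and highest values were 164, 205 and 319 CPM. In the lung libraries they were 86.0, 149 and 279 CPM. Every melanoma library lay under every breast and every lung library, while breast and lung libraries overlapped. Over all genes tested, 9.63% lay lower with no overlap in melanoma than in lung libraries, and 12.1% in melanoma than in breast libraries. The means of Lgals3 were 22.6 ± 20.9 CPM in melanoma, 221 ± 58.6 in breast and 171 ± 79.4 in lung libraries (SD, n = 6 each). By edgeR's quasi-likelihood test the log2 fold change was -2.91 ± 0.52 (SE) for melanoma over lung (adjusted p = 2.56e-04) and -3.28 ± 0.53 for melanoma over breast (adjusted p = 6.78e-05), that is 7.53-fold and 9.74-fold lower. Both comparisons share the melanoma libraries. For breast over lung it was 0.37 ± 0.48 (adjusted p = 0.661), a 95% interval of -0.57 to 1.31.

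**Figure D1:**
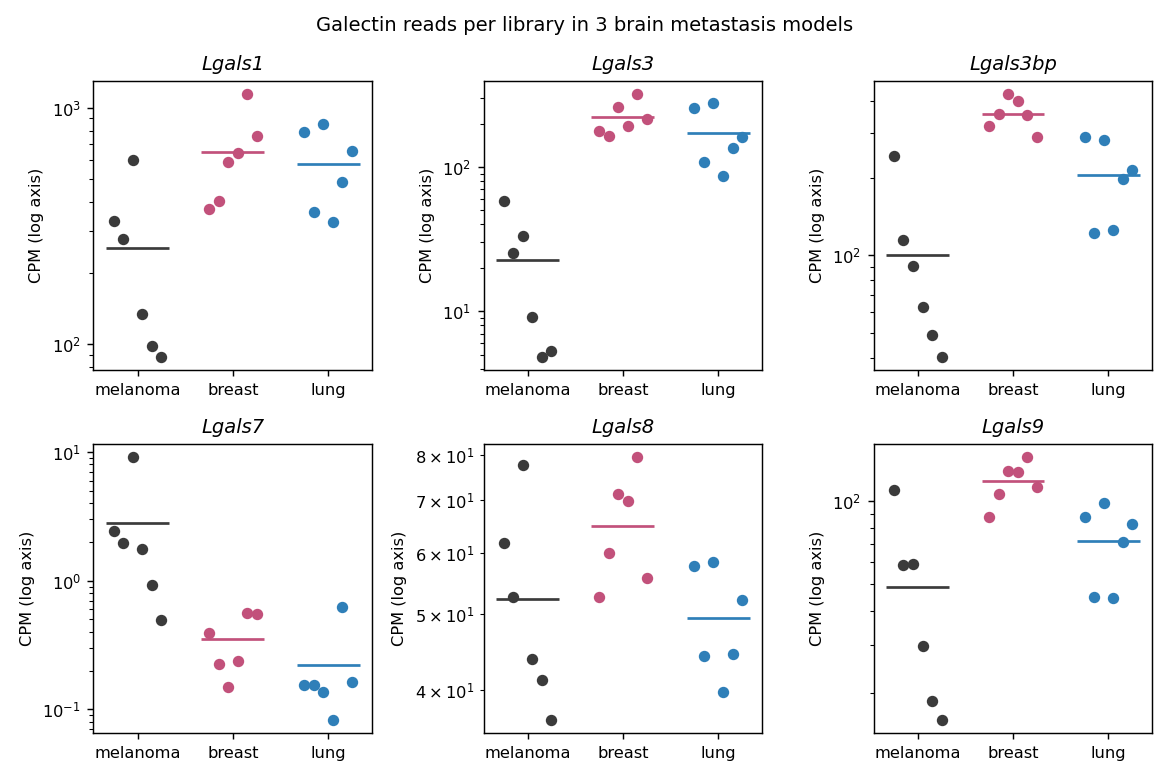
CPM of the 6 genes in each library on a logarithmic axis, with 1 point per library in replicate order and a line at the mean of the 6 libraries of a model. Lgals3 points of the melanoma model, at 4.82 to 58.1 CPM, lie under all points of the other models, and Lgals7 points are highest in melanoma replicate 3.

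Of the 5 members tested, 2 were lower in melanoma over lung (Lgals3 and Lgals3bp), 4 in melanoma over breast (Lgals1, Lgals3, Lgals3bp and Lgals9) and none differed in breast over lung. Over all 17174 genes tested, 14.7% were lower in melanoma over lung (23.2% in either direction), 19.2% were lower in melanoma over breast (28.9% in either direction), and 18.3% were called in either direction in breast over lung. No member was called higher, where the background was 8.51% in melanoma over lung and 9.76% in melanoma over breast. For breast over lung 2 of the 5 members had an unadjusted p under 0.05 in edgeR (Lgals3bp and Lgals8), and DESeq2 and limma voom also called none. A fit of the 12 breast and lung libraries alone called Lgals3bp (0.76, edgeR adjusted p = 0.0142) and Lgals9 (0.69, adjusted p = 0.0227) higher in breast over lung, and Lgals3bp also passed without melanoma replicate 1 (adjusted p = 0.0358). The median log2 fold change of the 5 was -1.03 in melanoma over lung, 0.39 in breast over lung and -1.35 in melanoma over breast, against 0.02, -0.02 and 0.04 over all genes tested.

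**Figure D2:**
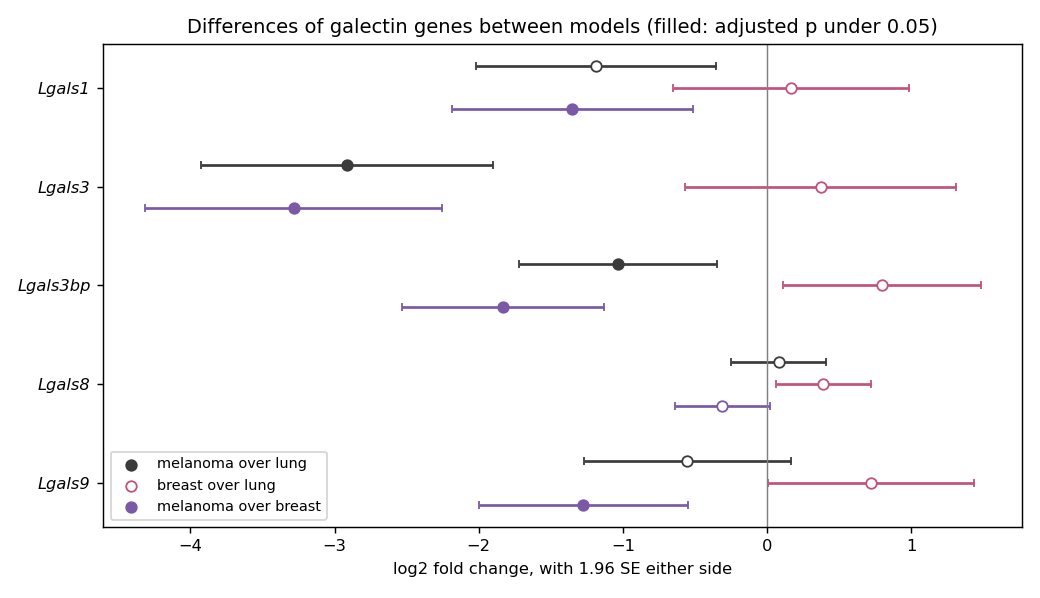
Log2 fold change of the 5 tested members in each pair of models, with 95% intervals as bars and filled points where the edgeR adjusted p is under 0.05. The widest distance from 0 is that of Lgals3, at -2.91 in melanoma over lung and -3.28 in melanoma over breast, and the points of breast over lung are all open.

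Lgals3bp encodes the scavenger-receptor glycoprotein that galectin-3 and integrins bind, and is known as an interferon-induced gene. It stood at 243, 114, 90.6, 62.8, 49.0 and 40.2 CPM in melanoma replicates 1 to 6. The breast libraries held 289, 354 and 424 CPM as lowest, median and highest value, and the lung libraries 122, 206 and 289 CPM. All melanoma libraries lay under all breast libraries, and all breast libraries over all lung libraries, the closest pair being breast replicate 19 and lung replicate 7. Melanoma and lung libraries overlapped, as melanoma replicate 1 stood above 4 of the 6 lung libraries. The log2 fold change was -1.83 ± 0.36 (SE) for melanoma over breast (edgeR adjusted p = 5.40e-04) and -1.03 ± 0.35 for melanoma over lung (adjusted p = 0.0390). For breast over lung it was 0.80 ± 0.35 (adjusted p = 0.132), although the libraries did not overlap. Groups that do not overlap in that direction were found for 8.94% of all genes tested, against 9.63% for lower melanoma than lung libraries and 12.1% for lower melanoma than breast libraries. The call in melanoma over lung lay near the threshold. It ended when any one of 9 libraries was left out (melanoma replicates 2 to 6 and lung replicates 7, 9, 11 and 13), with an adjusted p of up to 0.133 and log2 fold changes of -1.07 to -0.83. Without melanoma replicate 1 the log2 fold change was -1.52. Without the 3 libraries poor in long transcripts it was -0.99 (adjusted p = 0.0657).

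Lgals9 encodes galectin-9, a tandem-repeat galectin that binds the T cell and myeloid receptor Tim-3 and is induced by interferons. It was at 110.4, 58.9, 59.2, 29.6, 18.7 and 16.02 CPM in melanoma replicates 1 to 6. Its lowest, median and highest values were 87.9, 120.5 and 145 CPM in breast libraries and 44.6, 76.9 and 98.8 CPM in lung libraries. Melanoma replicate 1 lay within the breast range and above every lung library, whereas the other 5 lay under every breast library. The log2 fold change was -1.27 ± 0.37 (SE) for melanoma over breast (edgeR adjusted p = 0.0129), -0.55 ± 0.37 for melanoma over lung (adjusted p = 0.339) and 0.72 ± 0.37 for breast over lung (adjusted p = 0.20). Leaving out melanoma replicate 4 ended the call against breast (adjusted p = 0.0505), and leaving out melanoma replicate 1 made that against lung pass (-0.97, adjusted p = 0.0372). In the deposited CPM table no row carries the name of Lgals9: its reads, recovered from the CPM values, stand under LGALS16, the symbol of a human gene, and equal the counts of Lgals9 in all 18 libraries.

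Promoter sequences of 5 of the 6 genes, from RefSeq on GRCm38.p6 (250 bases before to 50 after the start), were searched on both strands for the interferon-stimulated response element (a pair of GAAA separated by any 2 bases), the STAT site TTCNNNGAA, the NF-kB site, the AP-1 site TGACTCA and the M-box TCATGTG of the melanocyte factor Mitf. Lgals9 held the interferon element at bases -55 to -46 and at bases 16 to 25 after the start, both on the opposite strand, and 3.44% of 32851 promoters held it. Both are shown, since Lgals9 is read beside the interferon genes here, as 30 bases in the direction of the gene on the minus strand of chromosome 11, with the element in capitals.
Lgals9 upstream element, chr11:78984960-78984989: tgacatcagcTTTCTTTTTCtctagacact
Lgals9 downstream element, chr11:78984890-78984919: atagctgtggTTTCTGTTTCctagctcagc
Lgals3bp held the M-box at bases -30 to -24 (3.77% of promoters) and no full interferon element. The shorter core AAANNGAAA, searched after its promoter had been read, was found at bases -15 to -7 (10.6% of promoters); every full interferon element contains this core. The 100 bases before its start are shown with the M-box and the core in capitals, in the direction of the gene on the minus strand.
Lgals3bp upstream, chr11:118401960-118402059: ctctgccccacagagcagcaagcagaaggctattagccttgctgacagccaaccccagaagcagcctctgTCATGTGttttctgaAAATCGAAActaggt
In the promoters of Lgals3, Lgals7 and Lgals8 none of these letters were found. The 100 bases before the start of Lgals3, the tested member with the largest difference, are shown for comparison, on the plus strand and with 75% G and C.
Lgals3 upstream, chr14:47373760-47373859: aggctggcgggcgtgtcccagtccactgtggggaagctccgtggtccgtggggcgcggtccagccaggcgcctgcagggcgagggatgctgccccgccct
A match is a description of the sequence, and binding was not measured.

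Lgals1, the gene of the prototype dimer galectin-1, which promotes T cell death and angiogenesis, had the most reads of the 6 in every model. It was at 332, 278, 599, 134, 97.8 and 88.2 CPM in melanoma replicates 1 to 6. The lowest, median and highest values were 374, 615 and 1139.8 CPM in breast libraries, and 329.8, 571 and 851 CPM in lung libraries. Melanoma replicate 3 lay within both other ranges, melanoma replicate 1 lay just above the lowest lung library, and the other 4 lay under every breast and lung library. The log2 fold change was -1.35 ± 0.43 (SE) for melanoma over breast (edgeR adjusted p = 0.0216) and -1.18 ± 0.42 for melanoma over lung (adjusted p = 0.0511). For breast over lung it was 0.17 ± 0.42 (adjusted p = 0.833). The highest value within the melanoma model stood in replicate 3 and that within the breast model in replicate 18, both poor in long transcripts, and Lgals1 is short (800 bases). Without the 3 libraries poor in long transcripts melanoma over lung was -1.62 (adjusted p = 0.00272) and breast over lung -0.26 (adjusted p = 0.667). The call against breast ended without melanoma replicate 4, 5 or 6 or breast replicate 18 (adjusted p of 0.0737, 0.0579, 0.0547 and 0.0813). Its processed pseudogenes Lgals1-ps1 and Lgals1-ps2 held 1 read and no read over all libraries.

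Lgals8, the gene of the tandem-repeat galectin-8 that recognises damaged endosomes, varied least among the 5 tested members. Melanoma libraries held 36.7, 48.2 and 77.6 CPM as lowest, median and highest value, breast libraries 52.7, 64.9 and 79.6 CPM, and lung libraries 39.7, 48.3 and 58.3 CPM. All 3 ranges overlapped. The log2 fold change was 0.08 ± 0.17 (SE) for melanoma over lung (edgeR adjusted p = 0.801), 0.39 ± 0.17 for breast over lung (adjusted p = 0.125) and -0.31 ± 0.17 for melanoma over breast (adjusted p = 0.182). The 95% intervals are -0.25 to 0.41, 0.06 to 0.72 and -0.64 to 0.02. Without melanoma replicate 3 melanoma over lung was -0.06 and melanoma over breast passed (-0.41, adjusted p = 0.0319).

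Lgals7, the gene of the galectin of stratified epithelium, was nearly unread outside the melanoma model. It had 33, 25, 117, 19, 10 and 6 reads in melanoma replicates 1 to 6, against 2 to 5 reads in each breast library and 1 to 8 in each lung library. The sums were 210 reads in melanoma, 21 in breast and 17 in lung libraries, and melanoma replicate 3 held 117 of the 210. On the CPM scale this was 2.79 ± 3.20, 0.352 ± 0.175 and 0.220 ± 0.201 CPM (SD, n = 6 each), the lung value being under the level of 3 counts in most libraries. Melanoma replicate 6, with 0.495 CPM, lay within the ranges of both other models, and the other 5 lay above both. In an edgeR fit with no filter on 31189 genes the log2 fold change was 3.67 ± 0.63 (SE) for melanoma over lung (adjusted p = 1.93e-04), 3.13 ± 0.62 for melanoma over breast (adjusted p = 7.12e-04) and 0.54 ± 0.83 for breast over lung (adjusted p = 0.760). Lgals7 is short (754 bases), and replicate 3 is poor in long transcripts. Without that library the melanoma mean was 1.51 ± 0.785 CPM (SD, n = 5), and the log2 fold changes were 2.79 over lung (adjusted p = 5.83e-05) and 2.25 over breast (adjusted p = 4.38e-04). It was thus the single member higher in melanoma, at a low level, while 4 others were lower in at least 1 comparison.

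Levels of different genes were compared per kilobase of the longest annotated transcript. Lgals1 led in every model, at 319 ± 245 CPM per kilobase in melanoma, 813 ± 351 in breast and 724 ± 276 in lung libraries (SD, n = 6 each). In breast and lung libraries Lgals3 (156 ± 41.3 and 121 ± 55.9 CPM per kilobase) and Lgals3bp (153 ± 21.4 and 88.0 ± 31.1) followed, with overlapping ranges, and then Lgals9 (74.6 ± 12.8 and 45.2 ± 14.3), Lgals8 (22.8 ± 3.65 and 17.4 ± 2.72) and Lgals7. In melanoma libraries Lgals3bp (42.9 ± 32.4 CPM per kilobase), Lgals9 (30.8 ± 22.5), Lgals8 (18.4 ± 5.37), Lgals3 (15.9 ± 14.7) and Lgals7 (3.70 ± 4.25) each overlapped the next in this order. Lgals3 thus stood at rank 2 of 6 in breast and in lung libraries and at rank 5 in melanoma libraries. These levels depend on the transcript taken for the length.

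For Lgals1, Lgals3, Lgals3bp and Lgals9 the melanoma libraries spread more widely than those of the other models. The highest over the lowest library was 12.05-fold for Lgals3, 6.89-fold for Lgals9, 6.79-fold for Lgals1 and 6.06-fold for Lgals3bp in the melanoma model, against 1.95, 1.65, 3.05 and 1.47-fold in breast and 3.24, 2.21, 2.58 and 2.36-fold in lung libraries. The summed level of the 7 melanocyte markers was 15202, 13629.6, 23308, 7261, 4601 and 3723 CPM in melanoma replicates 1 to 6. Pmel and Mlana, pigment cell genes, averaged 2558 and 222 CPM in melanoma libraries, against 1.47 and 0.223 CPM in breast and 1.21 and 0.137 CPM in lung libraries. The mean log2 CPM of the 25 type I interferon response genes was 5.68, 4.34, 3.03, 3.06, 2.68 and 2.23 in the same libraries. Melanoma replicate 3 thus had the highest melanocyte level together with the highest Lgals1, Lgals7 and Lgals8, and melanoma replicate 1 the highest interferon level together with the highest Lgals3, Lgals3bp and Lgals9. Melanoma replicate 1 also had the highest macrophage and monocyte list mean of its model, at 3.14 log2 CPM (next 1.89 in replicate 2). Its T and NK cell list mean was the highest as well, at 1.62 log2 CPM (next -1.15 in replicate 2). The slope of log2 CPM with transcript length in these 6 libraries was 0.0532, 0.0695, -0.261, 0.182, 0.192 and 0.183. The part of tumour RNA, interferon response, immune cells and transcript length in the galectin levels was not tested.

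**Figure D3:**
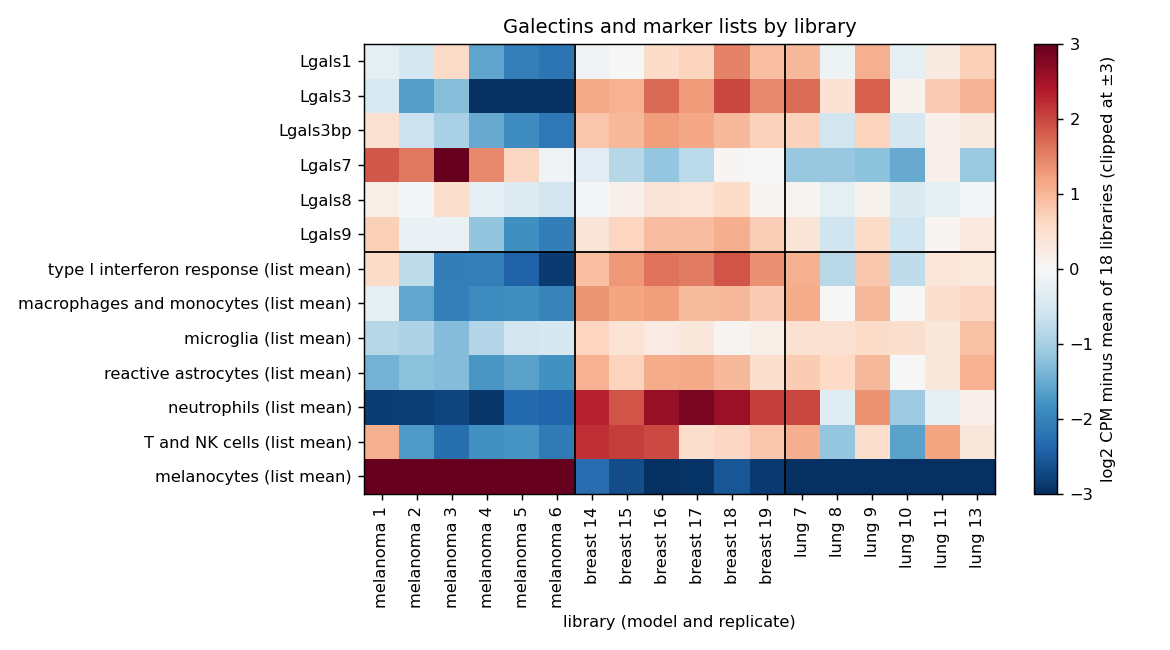
Log2 CPM of the 6 genes (top) and mean log2 CPM of 7 gene lists (below), each minus its mean over the 18 libraries, for each library. Blue Lgals3 cells fill melanoma replicates 1 to 6, and in melanoma replicate 1 the interferon list, at 5.68, stands apart from the 2.23 to 4.34 of the other 5.

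Genes most like each member were found by Pearson's r of the deviations of log2 CPM from the model means over the 18 libraries, among 13225 other genes with at least 5 CPM on average, as a description. All libraries share their tissue and their depth with both genes compared, and many genes vary together within the models. The deviations were not scaled by model, so that the melanoma libraries, with the widest spread, weigh most in r. The SD of log2 CPM was 1.48 in melanoma, 0.362 in breast and 0.675 in lung libraries for Lgals3. For Lgals9 it was 1.08, 0.257 and 0.498. For Lgals9 the most alike gene was Lgals3 (r = 0.97), followed by Cgas (0.96), the cytosolic DNA sensor, and Zc3hav1 (0.96), an antiviral zinc-finger protein. For Lgals3 they were Emp3 (0.97), an epithelial membrane protein gene, Gm20559 (0.97) and Lgals9, which came at rank 3 of 13225. For Lgals3bp they were Grn (0.97), the gene of the lysosomal and secreted protein progranulin, Bak1 (0.96), a mitochondrial apoptosis effector, and Tmem106a (0.96). For Lgals1 they were Cks1b (0.99) and Mad2l1 (0.99), both cell cycle genes, and Rpl4 (0.99), a ribosomal protein gene. For Lgals8 they were Taf5l (0.98), Tor4a (0.97) and Cited2 (0.97), a transcriptional co-regulator. An r over 0.9 was reached by 1261 genes for Lgals1 (9.53%), 491 for Lgals8, 313 for Lgals3, 190 for Lgals9 and 98 for Lgals3bp (0.741%). Between members, beside Lgals3 with Lgals9, r was 0.95 for Lgals3bp with Lgals9, 0.93 for Lgals1 with Lgals8 and 0.91 for Lgals3 with Lgals3bp, and lowest for Lgals1 with Lgals3bp (0.70). Without the 3 libraries poor in long transcripts r of Lgals3 with Lgals9 was 0.97.

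In bulk tissue, fewer cells of a type and less RNA per cell cannot be told apart, and several cell types that make galectins also differed. As background for the marker counts that follow, 14.7% of all genes tested were lower in melanoma over lung and 19.2% in melanoma over breast. Of 7 tested macrophage and monocyte markers 7 were lower in melanoma over lung and in melanoma over breast, with summed levels of 64.6 to 176 CPM in melanoma, 337 to 650.0 in breast and 367 to 560.3 in lung libraries. The eighth, Itgam, had no read in any library. Cd68 was at 12.3 ± 4.04 CPM in melanoma, 83.4 ± 13.2 in breast and 52.6 ± 15.6 in lung libraries, and Adgre1, the gene of F4/80, at 9.90 ± 5.07 CPM in melanoma, 49.0 ± 19.5 in breast and 49.9 ± 11.1 in lung libraries. Of 8 microglial markers 7 were lower in melanoma over lung and 6 in melanoma over breast, summing to 300.2 to 402 CPM in melanoma, 847 to 1058 in breast and 848 to 1211 in lung libraries. Tmem119 had log2 fold changes of -1.37 over lung and -1.32 over breast, and P2ry12, a purinergic receptor, of -0.81 over lung (edgeR adjusted p = 0.00220) and -0.38 over breast (adjusted p = 0.124). Of 8 reactive astrocyte markers 7 were lower in each of these comparisons, with sums of 550.1 to 1278 CPM in melanoma, 3561 to 4664 in breast and 3961 to 6867 in lung libraries. Gfap and Vim, intermediate filament genes, were at 349 ± 59.2 and 403 ± 199 CPM in melanoma, 1765 ± 118 and 1753 ± 395 in breast and 2013 ± 547 and 2838 ± 841 in lung libraries. Of 6 neutrophil markers 5 were lower in melanoma over lung and 6 in melanoma over breast, with sums of 4.29 to 8.16 CPM in melanoma, 98.7 to 289 in breast and 26.0 to 213 in lung libraries. Of those 6, 5 averaged under 1 CPM in melanoma libraries (Ly6g, S100a8, S100a9, Cxcr2 and Mmp8). Such markers passed the filter on low counts through the other models, which fixes their direction. The part of these cells in the galectin differences was not tested.

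Other genes of the family differed in the lung model. Lgals2 and Lgals4, galectins of gut epithelium, were at 4.89 ± 2.33 and 8.76 ± 11.4 CPM in lung libraries, where Lgals4 reached 31.8 CPM in replicate 8. In melanoma libraries they were at 0.141 ± 0.0746 and 0.979 ± 0.382 CPM, and in breast libraries at 0.352 ± 0.185 and 0.894 ± 0.312 CPM. Lgals4 fell in melanoma over lung by 3.14 on the log2 scale (edgeR adjusted p = 5.04e-04) and in breast over lung by 3.27 (adjusted p = 6.77e-04). Without lung replicate 8 the lung mean of Lgals4 was 4.15 ± 2.05 CPM (SD, n = 5) and the log2 fold changes were -2.07 and -2.20, both still past the test. Epithelial markers were also mostly lower against lung: of 5 tested, 5 in melanoma over lung (median log2 fold change -7.56) and 4 in breast over lung (median -4.70). Over all genes 14.7% were lower in melanoma over lung, and 18.3% were called in either direction in breast over lung. Of those called in breast over lung, 61% were higher. Krt8, Epcam, Krt19, Krt7 and Cldn4 averaged under 1 CPM in melanoma libraries, and Krt19, Krt7 and Cldn4 in breast libraries. A tested marker that low in a model passes the filter through other models, which fixes its direction against lung. The summed level of the 7 epithelial markers was 4.94 to 5.78 CPM in melanoma, 66.3 to 167 in breast and 309 to 1318 in lung libraries. Lung replicate 8 had the highest list mean, at 5.53 log2 CPM. Krt8 and Krt18, keratins of simple epithelium, were at 0.852 and 1.89 CPM in melanoma, 100.3 and 2.13 in breast and 292 and 358 CPM in lung libraries, and Cldn4 had no read in melanoma and breast libraries. Their part in the levels of Lgals2 and Lgals4 was not tested. Lgals6, a near-identical copy of Lgals4, had no match in the symbol table, so that its reads could not be described apart from those of Lgals4. Lgalsl, the galectin-related protein that lacks sugar binding, was at 87.0 ± 8.86 CPM in melanoma, 79.8 ± 6.24 in breast and 136 ± 18.5 in lung libraries. It fell by 0.64 in melanoma over lung (adjusted p = 9.22e-05) and by 0.77 in breast over lung (adjusted p = 2.10e-05). Lgals2 reached no more than 0.248 CPM in melanoma and 0.699 CPM in breast libraries. It passed the filter on low counts only through the lung libraries, so that its lower level against lung was fixed by the filter. Lgals12 and Grifin, the lens galectin-like gene, stayed under 1 CPM in every model and were not tested.

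Among 27 tested receptors and binding partners of galectins, 15 were lower and 1 higher in melanoma over lung, 17 lower and 1 higher in melanoma over breast, and 4 higher and 1 lower in breast over lung. Called in either direction were thus 59.3% in melanoma over lung, 66.7% in melanoma over breast and 18.5% in breast over lung, beside 23.2%, 28.9% and 18.3% of all genes, so that the last share was near the background. The median log2 fold changes were -0.83, -0.999 and 0.27, beside 0.02, 0.04 and -0.02 over all genes. Of the tested partners, Cd69, Cd2 and Tnfrsf9 averaged under 1 CPM in melanoma libraries. A gene that low there passes the filter on low counts through the other models, which fixes its direction in the melanoma comparisons. Havcr2, the gene of Tim-3, the T cell and myeloid receptor of galectin-9, was at 3.90 ± 1.13 CPM in melanoma, 29.9 ± 6.59 in breast and 22.5 ± 7.12 in lung libraries (log2 fold change -2.52 ± 0.24 (SE) in melanoma over lung, edgeR adjusted p = 1.28e-07). Trem2, a lipid receptor of microglia that galectin-3 binds in mouse, fell by 1.964 in melanoma over lung and by 2.002 in melanoma over breast. Lag3, a checkpoint receptor also bound by galectin-3, fell by 1.87 and 1.95, and Itgb1, the integrin beta-1 chain, by 1.77 and 1.27. Mertk, a receptor of phagocytes, fell by 0.49 in both. Most microglial, macrophage and monocyte markers were also lower in these 2 comparisons. The part of these cells in the levels of Havcr2, Trem2, Lag3 and Mertk was not tested. Cd44, the hyaluronan receptor, had -0.36 and -0.46 and did not pass (adjusted p = 0.468 and 0.262). Fn1, the matrix protein fibronectin, fell by 4.63 in melanoma over lung and by 3.91 in breast over lung. Of 7 fibroblast and pericyte markers 5 were lower in melanoma over lung and 4 in breast over lung. Of all genes, 14.7% were lower in melanoma over lung. In breast over lung 18.3% of all genes were called in either direction, and 61% of those called were higher. The summed levels of the fibroblast and pericyte markers were 140 to 218 CPM in melanoma, 170 to 226 in breast and 247 to 1639 in lung libraries. Col1a1, a collagen gene, was at 13.6 ± 5.54 CPM in melanoma, 13.4 ± 7.12 in breast and 156 ± 179 in lung libraries. Dcn, the gene of decorin, was at 22.3 ± 3.88 CPM in melanoma, 36.6 ± 6.04 in breast and 36.4 ± 11.4 in lung libraries. Their part in the level of Fn1 was not tested. Pdpn, a mucin-like partner of galectin-8, was lower in melanoma over lung (-0.83) and melanoma over breast (-1.73) and higher in breast over lung (0.90). Tfrc, the transferrin receptor, was the one partner higher in melanoma, by 1.01 over lung and 0.81 over breast.

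The enzymes that build or cap galectin ligands changed in both directions. Of 23 tested, 7 were higher and 8 lower in melanoma over lung, 5 higher and 12 lower in melanoma over breast, and 13 higher and 2 lower in breast over lung, which is 65.2%, 73.9% and 65.2% of the list beside 23.2%, 28.9% and 18.3% of all genes. Among those lower in melanoma were Galnt3 and Gcnt1, which start and branch O-glycans, Gcnt2, which branches poly-N-acetyllactosamine, and Fut4, a fucosyltransferase. Their log2 fold changes were -2.44, -2.68, -1.10 and -1.73 over lung, and -5.12, -3.60, -1.60 and -3.86 over breast. The same 4 were higher in breast over lung (2.68, 0.92, 0.50 and 2.13). Fut4 was at 0.733 CPM in melanoma, 10.8 in breast and 2.47 in lung libraries. It passed the filter on low counts through the breast and lung libraries, which fixes its direction in the melanoma comparisons. Mgat5, which adds the N-glycan branch that galectin-3 binds best, was at 148 ± 45.4 CPM in melanoma, 59.8 ± 20.6 in breast and 69.4 ± 15.9 in lung libraries (log2 fold change 1.09 ± 0.24 (SE) in melanoma over lung, edgeR adjusted p = 0.00203, and 1.30 ± 0.24 over breast). St6gal1, whose alpha-2,6 sialic acid cap blocks galectin-1 binding, was at 91.0 ± 32.6 CPM in melanoma, 31.6 ± 3.88 in breast and 46.4 ± 6.53 in lung libraries. It was 0.97 higher in melanoma over lung (adjusted p = 5.23e-04), 1.52 higher in melanoma over breast (adjusted p = 3.53e-06) and 0.55 lower in breast over lung (a log2 fold change of -0.55, adjusted p = 0.0472). The last call ended in 12 of 18 fits without 1 library, with an adjusted p of up to 0.103 without lung replicate 8 and log2 fold changes of -0.64 to -0.50 over all 18.

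**Figure D4:**
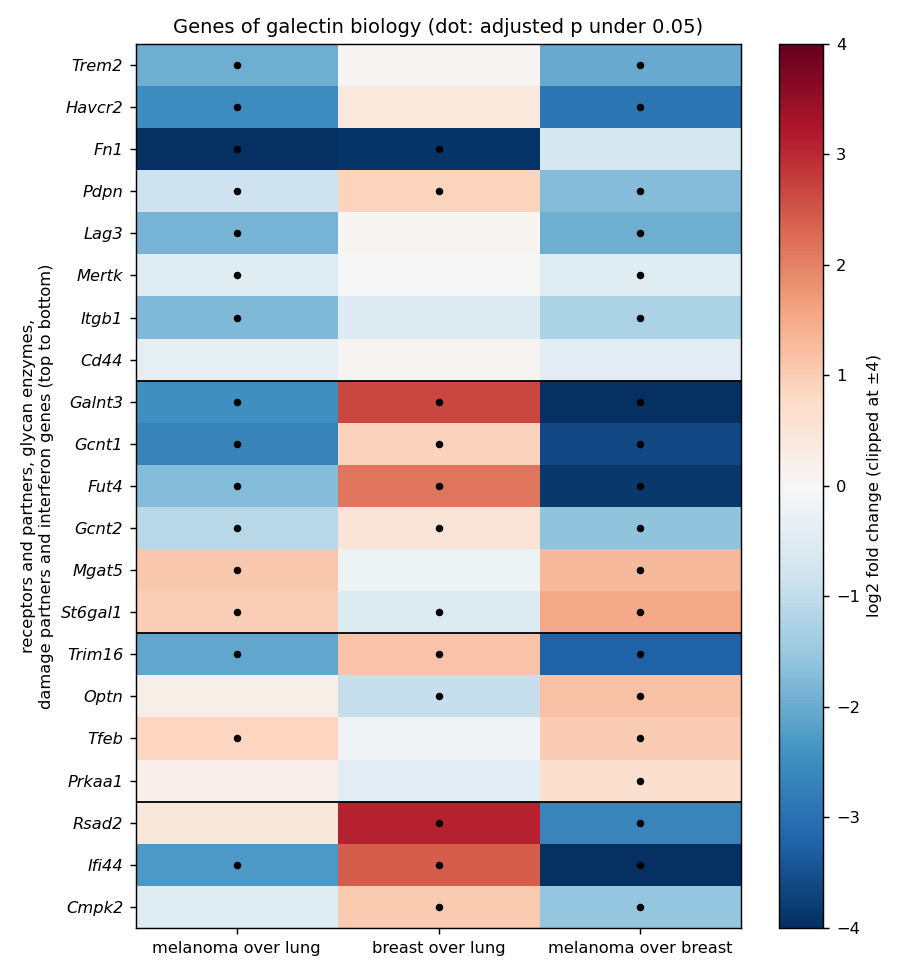
Log2 fold changes of receptors and binding partners, glycan enzymes, partners at damaged vesicles and interferon genes in the 3 pairs of models, with a dot where the edgeR adjusted p is under 0.05. Galnt3, Gcnt1, Gcnt2 and Fut4 are blue in both melanoma columns and red in breast over lung, whereas St6gal1 has the opposite colours. The direction of Fut4 in the melanoma columns is fixed by the filter on low counts (0.733 CPM in melanoma libraries).

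Partners of galectins at damaged vesicles were called in both directions. Of 19 tested, 1 was higher and 1 lower in melanoma over lung, 1 higher and 1 lower in breast over lung, and 4 higher and 3 lower in melanoma over breast. These are 10.5%, 10.5% and 36.8% of the list, beside 23.2%, 18.3% and 28.9% of all genes. The small counts depend on the settings: 0 to 4 were higher in melanoma over lung and 0 to 4 lower in breast over lung under 13 other settings. Trim16, the ubiquitin ligase that works with galectin-3 on ruptured lysosomes, was at 2.50 ± 0.412 CPM in melanoma, 23.4 ± 5.65 in breast and 10.6 ± 1.49 in lung libraries. Its log2 fold change was -2.09 ± 0.18 (SE) in melanoma over lung, -3.22 ± 0.18 in melanoma over breast and 1.13 ± 0.16 in breast over lung, with edgeR adjusted p of 3.49e-08, 1.88e-10 and 3.95e-05. Tfeb, the master factor of lysosome genes, was higher in melanoma, by 0.85 over lung and 1.001 over breast. Optn, an autophagy receptor, was higher in melanoma over breast (1.17) and lower in breast over lung (-0.92). Prkaa1, the AMPK catalytic subunit gene, was higher in melanoma over breast (0.64).

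Of the 25 type I interferon response genes, set beside Lgals9 and Lgals3bp, 10 were lower in melanoma over lung, 23 were lower in melanoma over breast, and 8 were higher in breast over lung. These are 40%, 92% and 32% of the list, beside 23.2%, 28.9% and 18.3% of all genes called in either direction. Leaving out melanoma replicate 1 raised the first count to 24, and leaving out 1 library moved the last to between 3 and 14. Rsad2 was at 27.6 ± 37.4 CPM in melanoma, 173 ± 76.7 in breast and 20.4 ± 7.83 in lung libraries, Ifi44 at 4.57 ± 5.12 CPM in melanoma, 121 ± 50.6 in breast and 22.7 ± 10.97 in lung libraries, and Cmpk2 at 41.9 ± 16.3 CPM in melanoma, 122 ± 35.2 in breast and 59.2 ± 13.6 in lung libraries. The list mean was 2.23 to 5.68 log2 CPM in melanoma, 6.01 to 7.01 in breast and 4.28 to 6.19 in lung libraries. In the lung model replicates 8 and 10 had the lowest list means (4.28 and 4.35) and also the lowest Lgals3 (108 and 86.0 CPM), Lgals3bp (122 and 125 CPM) and Lgals9 (44.7 and 44.6 CPM). The same libraries also had the lowest Lgals1 (361 and 329.8 CPM), Lgals8 (44.3 and 39.7 CPM) and macrophage and monocyte list means (3.44 log2 CPM in both), so that all 5 tested members were lowest there. Their slopes of log2 CPM with transcript length, 0.111 and 0.150, were the highest of the lung model. In the breast model replicate 14 had the lowest list mean and the lowest Lgals9, while Lgals3bp was lowest in replicate 19. Whether the interferon response, macrophages and monocytes or transcript length bear on these galectin levels was not tested.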

How the data were processed

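Poly(A)+ RNA of 18 brains was sequenced as directional libraries, per the labels' protocols. The submitters' processing notes name bcl2fastq and the GRCm39 build. Which aligner, counter and annotation were used is not given in the sources used here, nor is the strand option. The deposited raw counts are whole numbers per mouse Ensembl gene with no normalization. The deposited CPM table holds CPM for 16925 genes, of which whole reads were recovered for 100% of values (tolerance 0.01). An edgeR fit on these reads called 3469, 2719 and 4448 genes in melanoma over lung, breast over lung and melanoma over breast.

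The model was fitted to the counts in edgeR 4.0.16 (under R 4.3.3), with TMM scaling, filterByExpr (17174 genes, 99.8% of reads), the robust quasi-likelihood test, 1 coefficient per model and all 18 libraries, and Benjamini-Hochberg adjustment over all genes tested. Changes were called at an adjusted p under 0.05. Alternatives used limma 3.58.1 and DESeq2 1.42.0. The labels give 1 brain per library, and p-values measure the spread between these brains. Symbols came from GENCODE M21 by gene ID without its version (52083 of 55416 IDs matched), and transcript lengths from its transcripts. The CPM printed are on TMM-scaled library sizes. The 95% intervals of fold changes are from their SE, and the levels of 3 counts cover counting error only. Counts of any 2 libraries of the same model differed beyond sampling noise (chi-square over its degrees of freedom at least 2.68), so none was counted as a repeat. The fit was tested on simulated data. The members, gene lists and rules were chosen with earlier results of these data known. Named genes were the 6 members, the other family genes, in each partner list the 4 called genes with the smallest p plus 8 fixed genes, 3 interferon genes, the 3 genes most like each member, and the first 2 genes of the marker lists described. Genes that stand outside this rule (Tfrc and the pseudogenes) were chosen after their values were seen.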

Additional observations from a re-analysis of the deposited data

Results flagged for a closer look

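Single libraries stood apart from the other 5 of their model by Dixon's criterion in 10 of the 81 groups of 6 values examined. The criterion flags about 1 in 20 groups of independent, normally distributed values. CPM without logarithm were used here and the groups share libraries and genes, so that this rate is no benchmark for the count. Among the galectin genes, Lgals3bp was at 243 CPM in melanoma replicate 1, with the nearest library at 114 CPM. Lgals7 was at 9.17 CPM in melanoma replicate 3 (nearest 2.43) and at 0.626 CPM in lung replicate 11 (nearest 0.164), where 8 reads were counted. Lgals4 was at 31.8 CPM in lung replicate 8 (nearest 7.39).

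Among the summed gene lists, the type I interferon genes were at 1549 CPM in melanoma replicate 1 (nearest 617) and the T and NK cell markers at 26.5 CPM in the same library (nearest 9.85). The partners at damaged vesicles were at 3178 CPM in melanoma replicate 3 (nearest 2502), and the endothelial markers at 99.7 CPM in that library (nearest 181). The glycan enzymes were at 1182 CPM in lung replicate 11 (nearest 1280.5), and the neuronal markers at 2659 CPM in breast replicate 18 (nearest 3640.4).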

How the results depend on the processing

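No paired analysis was possible because the models share no replicate number. Lgals3 kept both calls in melanoma in every fit run (without 1 library, -3.45 to -2.64 over lung and -3.82 to -3.02 over breast). Of 189 fold changes of the 5 members under other settings, 169 kept direction and call, 9 gained a call, 8 lost it and 3 reversed. The cause of each change was not tested. Lgals8 in melanoma over lung was -0.0564 without the 3 libraries poor in long transcripts and ran from -0.0561 to 0.21 without 1 library. Lgals1 in breast over lung was -0.26 without those 3 libraries, -0.0722 with the length slope as covariate (added after seeing the data), and -0.11 to 0.31 without 1 library.

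Members called in melanoma over lung numbered 1 with DESeq2 size factors, 1 in the test against 1.5-fold, 1 with the 12 libraries of both models and 4 with limma on the deposited CPM (pseudocount 1; Lgals9 not tested), and 1 to 4 without 1 library. Both values of 4 hold 3 lower members (Lgals1, Lgals3 and Lgals3bp) and Lgals7, which was called higher. Lgals7 passes the filter in some fits with fewer libraries. It does so through the melanoma libraries, which fixes its direction in those fits. Over the 5 members tested with all libraries, 1 to 3 were called. In breast over lung they numbered 2 with 12 libraries (Lgals3bp and Lgals9), 1 with the slope covariate (Lgals8) and 0 to 1 without 1 library. In melanoma over breast they numbered 2 against 1.5-fold and 2 to 5 without 1 library. There, a count of 5 is the same 4 lower members plus Lgals7, called higher, except without melanoma replicate 3, where Lgals8 was the fifth. Genes called against 1.5-fold were 1897 in melanoma over lung, 1053 in breast over lung and 2218 in melanoma over breast. With the slope covariate they were 6793 in melanoma over lung and 5659 in breast over lung. Without 1 library they ran from 3495 to 4623, 2575 to 4113 and 4520 to 8078, the last without melanoma replicate 3. Under the other settings the interferon genes lower in melanoma over lung numbered 5 to 19 and those higher in breast over lung 2 to 16. Glycan enzymes higher numbered 1 to 10 in melanoma over lung and 5 to 13 in breast over lung, where those lower numbered 0 to 3 (0 to 2 without 1 library). Lgals4 in melanoma over breast, not called, ran from -0.0492 to 0.35 without 1 library. Depth limits Lgals7, with 1 to 8 reads in each breast and lung library.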
